A study of Mus musculus with 42 samples.

Results

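Tumours taken 16 h after a dose of BXCL701 on day 14 of treatment were compared with vehicle tumours of day 14. The comparison holds 6 of the 42 RNA sequencing libraries of the series, 3 tumours in each group, chosen by the group label carried in each column name of the deposited gene table. All were tumours of Pan02, a mouse pancreatic adenocarcinoma line, grown under the skin of C57BL/6 mice, 1 tumour from each animal. The BXCL701 animals had received 20 ug per mouse by gavage each day for 14 days and were sampled at 16 h. The vehicle animals had received vehicle (PBS in the extraction protocol) on the same 14-day schedule and were sampled at 0 h. No vehicle group at 16 h was analysed here, so the drug and the hour of harvest cannot be told apart in this comparison. A flank tumour of 1 cell line lacks the tissue around a pancreatic tumour.

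BXCL701 (talabostat) inhibits serine peptidases that cut after proline: FAP of activated fibroblasts, the surface enzyme DPP4 and its intracellular relatives DPP8 and DPP9. Inhibition of DPP8 and DPP9 is known to release the inflammasome sensor NLRP1 and to activate caspase-1 in macrophages. Interferon gamma, made by T cells and NK cells, induces guanylate-binding proteins, class I and class II antigen presentation and the CXCR3 ligands. Immediate early genes such as Fos, Egr1 and Nr4a1 respond within an hour to growth factors, adrenergic signals and handling. Many genes of a tissue follow the clock. An unmatched hour could touch both sets, which was not tested here.

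Against vehicle, 9 genes rose (0.0542% of the 16613 genes tested) and 3 fell (0.0181%), 0.0722% in both directions, by limma with a Benjamini-Hochberg adjusted p under 0.05. The risen genes were the guanylate-binding protein genes Gbp8 and Gbp4, the class I transactivator Nlrc5, the non-classical class I genes H2-Q5 and H2-Q6, Parp14, the calcium channel Trpm2, the G-CSF receptor Csf3r and the lipoprotein receptor Tlr2. The fallen genes were Rpl22l1, Fgf15 and Wdr89. In all 12 the BXCL701 tumours lay on 1 side of the vehicle tumours, as they did in 5.84% of all genes tested (all above) and 5.26% (all below). The 12 were picked by p-value on these same tumours, which favours separate groups, so this is a description and not added evidence. Another 34 genes, 30 of them higher and 4 lower, had an adjusted p between 0.0514 and 0.0594, so the count depends closely on the threshold. In bulk tissue a change in the number of cells of a type and a change in RNA per cell cannot be told apart.

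These counts turned on single libraries. Without vehicle replicate 3 the number of genes that passed was 990 (614 higher, 376 lower), and without BXCL701 replicate 2 it was 67. It was 0 without vehicle replicate 2, without BXCL701 replicate 1 or without BXCL701 replicate 3, and 1 without vehicle replicate 1. At an unadjusted p under 0.05 limma called 1930 genes with all libraries, and 659, 1581 and 1560 in those 3 fits with a count of 0. The 12 genes kept their direction in each of these fits, which was fixed in advance because their groups did not overlap. Vehicle replicate 3 had the highest value of the 3 vehicle tumours in all 9 risen genes, and vehicle replicate 2 had the lowest in all 9. Vehicle replicate 3 also stood apart in keratinocyte markers, with a mean level over the list of 10.11 on the log2 scale against 2.72 and 3.54 in the other vehicle tumours. Among the BXCL701 tumours replicate 3 was likewise the highest, at 8.22 against 2.91 and 3.51. The part of these markers in the single-library results was not tested. A fit with keratinocyte, skeletal muscle and adipocyte levels as covariates called 13 genes, but only 8 of the 12. Csf3r, Tlr2 and Wdr89 (each adjusted p = 0.0585) and Parp14 (adjusted p = 0.052) lost their call there.

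Deposited values summed over genes and divided by 1e6 ranged from 21 to 24 in the 6 libraries and from 19.1 to 26.6 in all 42. Pearson correlations across genes were 0.934 to 0.965 within the BXCL701 group, 0.917 to 0.965 within the vehicle group and 0.915 to 0.977 between them. The epithelial and tumour list, with Krt8, Krt18 and Krt19, had a mean level of 9.56 to 10.57 in vehicle and 9.85 to 10.26 in BXCL701 tumours. None of its 10 members was near 0 in any of the 6 libraries. Skeletal muscle markers were present in every library (7.33 to 10.05 in vehicle, 6.70 to 9.67 in BXCL701 tumours), and these mark tissue beside the tumour. Levels here and throughout are log2(deposited value + 1), and a difference is the BXCL701 mean minus the vehicle mean on that scale.

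**Figure D1:**
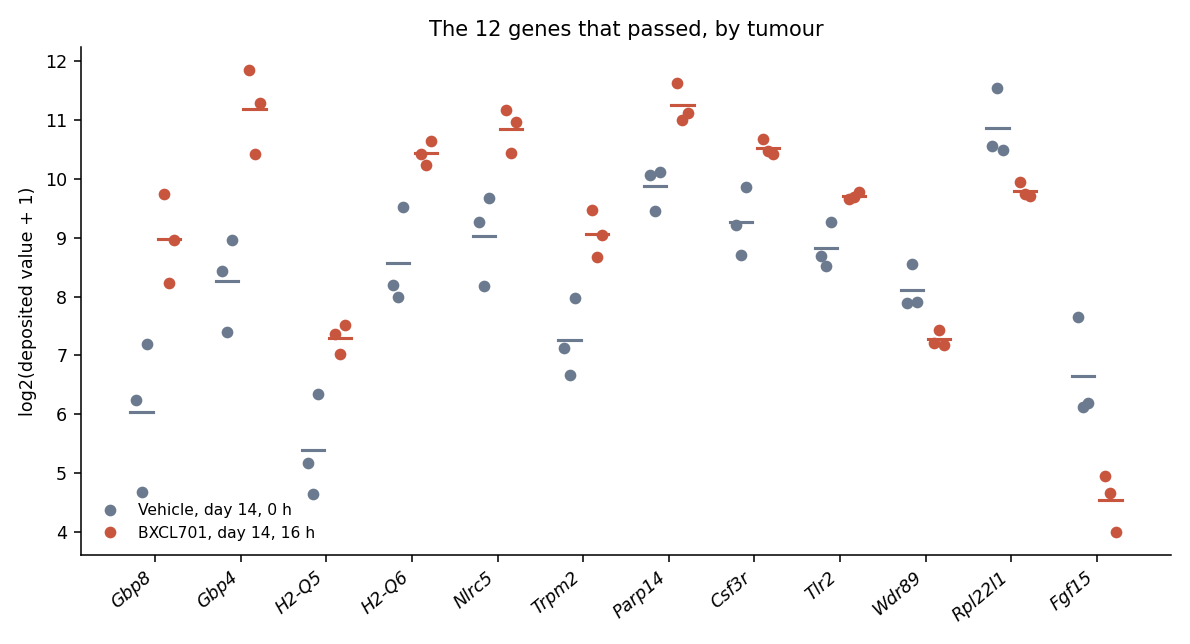
The 12 genes that passed, ordered by their difference. Each point is 1 tumour, the vertical axis is log2(deposited value + 1) and the bar is the group mean of 3 tumours. The BXCL701 tumours lie above all vehicle tumours for the 9 genes on the left and below them for Wdr89, Rpl22l1 and Fgf15.

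Guanylate-binding proteins are interferon-induced GTPases that attack the membranes of intracellular pathogens. Gbp4 (chr5:105115767-105139586 in GENCODE M21 on GRCm38, minus strand) stood at 8.43, 7.41 and 8.96 in the vehicle tumours and at 11.84, 10.42 and 11.28 in the BXCL701 tumours. The lowest BXCL701 tumour was well above the highest vehicle tumour, and the difference was 2.92 ± 0.59 (SE; adjusted p = 0.0429, limma, n = 3 against 3 in an all-gene fit). Gbp8 (chr5:105014150-105139540, minus strand) had values of 6.24, 4.68 and 7.20 in vehicle and 9.75, 8.24 and 8.95 in BXCL701 tumours. Its difference of 2.94 ± 0.54 corresponds to 7.68-fold (adjusted p = 0.0238). The annotated spans of Gbp8 and Gbp4 overlap on 1 strand, so reads could have been split between them and the values of both are uncertain.

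Nlrc5 is the transactivator that drives class I genes. Its gene (chr8:94434356-94527272, plus strand) stood at 9.26, 8.17 and 9.67 in vehicle and at 11.16, 10.43 and 10.97 in BXCL701 tumours. No value overlapped, and Nlrc5 rose by 1.82 ± 0.34 (adjusted p = 0.0238), or 3.53-fold. H2-Q6 (chr17:35424850-35430055) had 8.20, 8.00 and 9.51 in vehicle and 10.42, 10.23 and 10.64 in BXCL701 tumours, a rise of 1.86 ± 0.35 (adjusted p = 0.0274). H2-Q5 (chr17:35394126-35397800) went from a mean of 5.39 to 7.30, a rise of 1.92 ± 0.37 (adjusted p = 0.0329). H2-Q5, H2-Q6 and their neighbour H2-Q7 (1.70 ± 0.39, adjusted p = 0.0549) are near-identical copies on chromosome 17, and how reads were divided among them is uncertain. Parp14 (chr16:35832874-35871544), a mono-ADP-ribosyltransferase induced by interferon, had 10.07, 9.46 and 10.11 in vehicle and 11.63, 11.01 and 11.11 in BXCL701 tumours, a rise of 1.37 ± 0.28 (adjusted p = 0.0499).

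In the interferon gamma list, of 20 tested members 2 rose (Nlrc5 and Gbp4), where 0.0542% of all genes did. None fell, and 18 had all BXCL701 tumours above all vehicle tumours, where 5.84% of all genes did. The list's median difference was 1.95, against 0.01 over all genes tested, and all 20 members were above 0, where 51.1% of all genes were. Members that missed the threshold closely included Gbp6 (2.28 ± 0.50, adjusted p = 0.0514) and the immunity-related GTPase Iigp1 (2.39 ± 0.53, adjusted p = 0.0549). The chemokine gene Cxcl9, which recruits CXCR3-bearing T cells, stood at 10.05, 8.43 and 11.17 in vehicle and at 12.38, 11.98 and 13.01 in BXCL701 tumours (2.58 ± 0.61, adjusted p = 0.0621). Its groups did not overlap. Gbp10 (3.60 ± 0.78, adjusted p = 0.0514), Gbp11 (3.58 ± 0.83, adjusted p = 0.0566) and Ubd (3.34 ± 0.77, adjusted p = 0.0565), a ubiquitin-like modifier induced by interferon gamma and TNF, had the largest differences among the genes named here but low vehicle values.

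The promoter of Gbp2 shows the kind of element that interferon-stimulated genes carry. Gbp2, an abundant guanylate-binding protein gene, stood at 11.81, 11.05 and 11.88 in vehicle and at 14.29, 13.06 and 13.87 in BXCL701 tumours, a difference of 2.15 ± 0.48 (adjusted p = 0.0549) that did not pass. The RefSeq promoter table on GRCm38.p6 holds 12 of the 20 interferon gamma genes, and 9 of those 12 contain the interferon-stimulated response element core GAAANNGAAA on either strand, where 3.44% of 32851 promoter windows of 300 bases did. Of the 14 type I interferon genes in the table, 9 contain it. A gene was counted if any of its windows held the motif, while the share is per single window, so the 2 are unlike measures. This holds for each motif below. In the window of Gbp2 below (chr3:142620513-142620662, plus strand, the 150 bases before the transcript start) the capitals mark the core read on the opposite strand, beginning 59 bases before the start.
Gbp2: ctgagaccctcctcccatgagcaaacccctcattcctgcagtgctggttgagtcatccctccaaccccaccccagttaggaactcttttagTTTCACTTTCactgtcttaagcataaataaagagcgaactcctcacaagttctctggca
A match is a feature of the letters and not a measured binding site. Of the 12 genes that passed, 6 have a window in that table, and Nlrc5 and Gbp4 have none.

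Antigen presentation genes were mostly higher. In the class I list 10 of 12 tested members had separate groups, all higher, and the median difference was 0.99. Over all genes tested 5.84% were separate and higher and the median was 0.01, which holds for each count of higher members in these paragraphs. Nlrc5 was the 1 member that passed, where 0.0542% of all genes tested rose. The light chain gene B2m (0.93 ± 0.25, adjusted p = 0.0968) and the peptide transporter gene Tap1 (1.53, adjusted p = 0.0972) did not pass. The non-classical class I genes had a median of 1.62, with 9 of 9 tested members separate and 2 passed, against the same 0.0542%. The H2-Q members among them are near-identical copies, so these counts are not of independent genes. Class II genes had a median of 1.61 but only 1 of 9 tested members separate (H2-DMb1). Their spread was wide: H2-Ab1 stood at 12.27, 12.20 and 13.94 in vehicle and at 15.08, 13.25 and 14.92 in BXCL701 tumours (adjusted p = 0.166). The class II transactivator Ciita stood at 6.68, 5.27 and 8.51 in vehicle and at 10.23, 8.31 and 9.77 in BXCL701 tumours. Its groups overlapped by the lowest BXCL701 tumour, and the difference of 2.62 ± 0.55 had an adjusted p of 0.0514. The type I interferon list had none of 20 passed, 9 separate, all higher, and a median of 0.97.

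The myeloid genes that passed were Csf3r, Trpm2 and Tlr2. Csf3r (chr4:126024550-126044440, plus strand) stood at 9.21, 8.70 and 9.87 in vehicle and at 10.67, 10.47 and 10.41 in BXCL701 tumours, a rise of 1.26 ± 0.26 (adjusted p = 0.0429). Trpm2 (chr10:77907722-77970563, minus strand), a channel gated by ADP-ribose and expressed in phagocytes, had 7.13, 6.66 and 7.98 against 9.47, 8.68 and 9.05, a rise of 1.81 ± 0.30 (adjusted p = 0.0238). Tlr2 (chr3:83836272-83841767, minus strand) rose by 0.87 ± 0.18 (adjusted p = 0.0429), and its 3 BXCL701 tumours were tightly placed at 9.65, 9.69 and 9.77.

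Neutrophil markers had a median difference of 1.29. Of 15 tested members 1 rose (Csf3r; 0.0542% of all genes did) and 9 had separate groups, all higher (5.84% of all genes). The summed deposited value of the list was 2725 to 4534 in vehicle and 5846 to 6883 in BXCL701 tumours. Mmp8, a neutrophil collagenase, stood at 3.28, 3.44 and 3.78 in vehicle and at 5.83, 6.08 and 5.99 in BXCL701 tumours (2.46 ± 0.53, adjusted p = 0.0514). Spread was small in either group, but the vehicle values were low. On the deposited FPKM values, as log2(FPKM + 1), the Mmp8 difference was only 0.94 ± 0.26 (adjusted p = 0.112, limma). Lcn2, the neutrophil granule siderophore-binding protein, had 4.82, 6.01 and 7.61 against 8.47, 9.10 and 8.71 (2.61 ± 0.67, adjusted p = 0.0769). The granule genes Elane and Mpo were too low to test. The list of neutrophil chemokines and related cytokines had a median of 0.15 and no separate groups, with 6 of 8 tested members above 0 and 2 below. Cxcl1 was at -0.09 and Cxcl2 at 0.00, while the cytokine genes Il1a (2.157) and Il1b (1.165) had larger differences that did not pass.

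Lymphocyte genes gave no call. T cell markers had 3 of 13 separate, all higher (5.84% of all genes), Cd8a and Cd8b1 among them, and a median of 1.07. Cd8a stood at 6.34, 5.48 and 6.24 in vehicle and at 6.90, 6.64 and 7.53 in BXCL701 tumours (1.00 ± 0.46, adjusted p = 0.39). The cytotoxic list had 3 of 9 separate, among them the perforin gene Prf1 (1.73 ± 0.51, adjusted p = 0.136). NK cell markers had 9 of 10 members above 0, where 51.1% of all genes were, and a median of 0.50. Klrc1 was separate and higher (1.37, adjusted p = 0.188) and Klra4 separate and lower. The list's summed deposited value went the other way, at 379 to 438.2 in vehicle and 256 to 337.7 in BXCL701 tumours. Klra4, an NK cell receptor gene of the Ly49 family, was low in the BXCL701 tumours (5.63, 6.12 and 5.63 against 8.10, 8.37 and 6.69), with a difference of -1.93 ± 0.49 (adjusted p = 0.0739). The Ly49 genes resemble each other closely, so that value is uncertain. Among checkpoint genes, Cd274, which codes for the ligand PD-L1, stood at 8.00, 6.99 and 8.51 in vehicle and at 10.07, 9.27 and 9.78 in BXCL701 tumours (1.88 ± 0.43, adjusted p = 0.0565). Its 3 BXCL701 tumours were all higher. B cell and plasma cell markers had no separate group (0 of 10) and varied widely, from 4.82 to 8.22 in vehicle and from 5.99 to 8.08 in BXCL701 tumours.

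The peptidases that the drug targets gave no call. None of the 7 tested dipeptidyl peptidase family genes had separate groups and the list's median was 0.12, with Dpp8 at 0.38 ± 0.31 (adjusted p = 0.733), Dpp9 at 0.12 ± 0.15 (adjusted p = 0.872) and Fap at -0.07 ± 0.74 (adjusted p = 0.994). Inflammasome genes had 7 of 13 tested members separate, all higher (5.84% of all genes), a median of 0.80 and none past the threshold. The sensor gene Nlrp1a stood at 4.01, 3.08 and 4.23 in vehicle and at 5.22, 4.74 and 5.03 in BXCL701 tumours (1.22 ± 0.36, adjusted p = 0.129), and Casp4, the non-canonical inflammasome caspase, had a difference of 0.98 ± 0.24 (adjusted p = 0.0671). Schlafen genes, named for growth arrest of lymphocytes, had a median of 1.17 with 4 of 7 separate, all higher, against the same 5.84%.

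**Figure D2:**
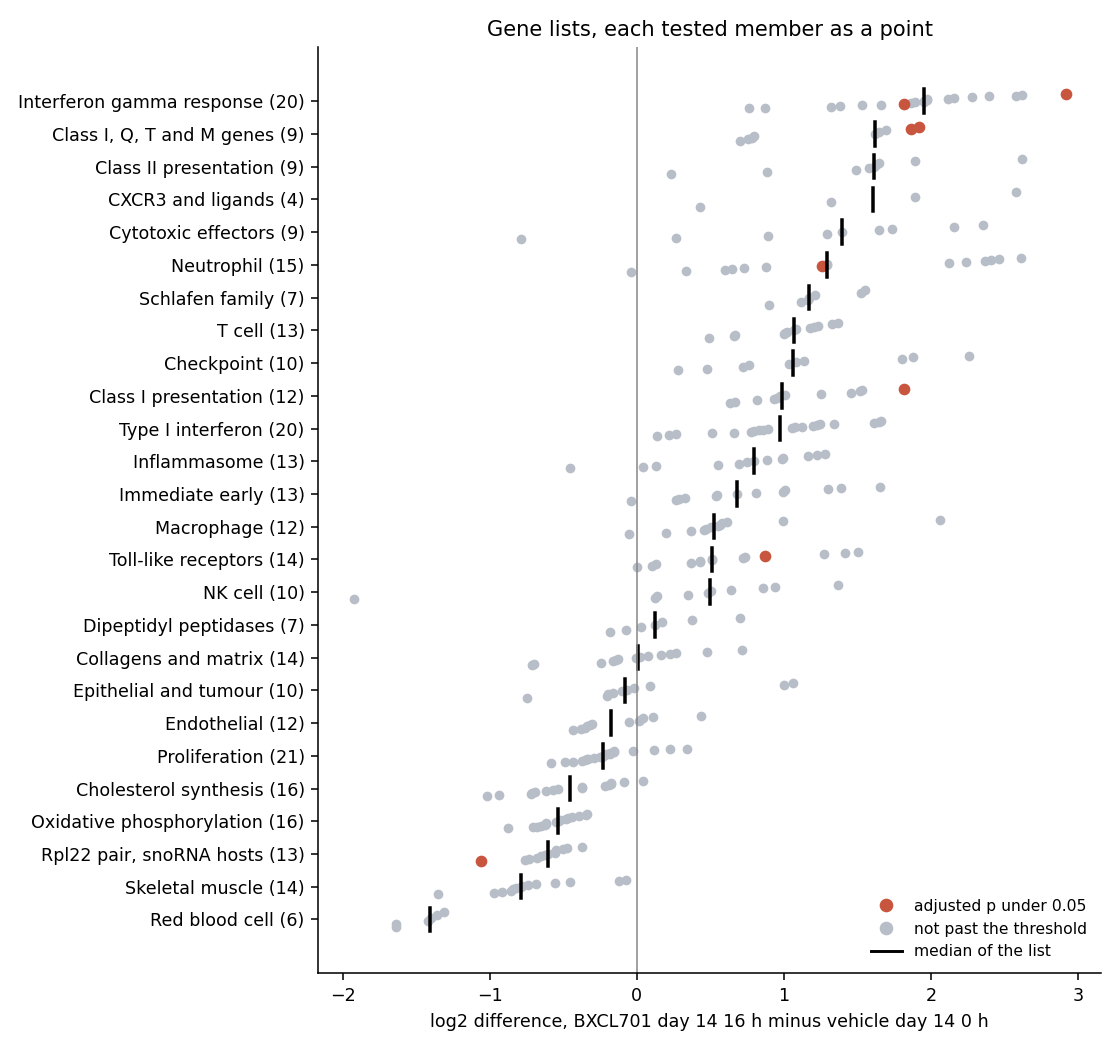
Each row is a gene list with the number of tested members in parentheses, and each point is 1 member's log2 difference between the BXCL701 tumours and the vehicle tumours. Coloured points passed at an adjusted p under 0.05 and the black bar is the list's median, which was 1.95 for the interferon gamma list and -1.41 for red blood cell markers.

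Of the fallen genes, Rpl22l1 (chr3:28805436-28807424, plus strand), a paralogue of the ribosomal protein gene Rpl22, stood at 10.56, 11.54 and 10.48 in vehicle and at 9.95, 9.75 and 9.70 in BXCL701 tumours. It fell by 1.06 ± 0.19 (adjusted p = 0.0238). Its paralogue Rpl22 (-0.74 ± 0.18, adjusted p = 0.0709) and Naca (-0.68 ± 0.15, adjusted p = 0.0549), a nascent-chain chaperone, had separate groups, both lower. In the list of Rpl22 paralogues, snoRNA host genes and translation factors, 7 of 13 tested members had separate groups, all lower (5.26% of all genes), with a median of -0.60, and 13 lay below 0, where 48.9% of all genes did. In the bin of shortest genes, where this list's median length falls, 11.6% had all lower groups and the median difference was -0.20. Ribosomal genes have processed copies in the genome, so these values may share reads with pseudogenes. Fgf15 (chr7:144896531-144900953, plus strand), a hormone of the bile acid feedback loop, had low values of 7.65, 6.12 and 6.20 in vehicle and 4.95, 4.67 and 4.01 in BXCL701 tumours. Fgf15 fell by 2.12 ± 0.39 (adjusted p = 0.0238), which is 4.34-fold lower. Wdr89 (chr12:75630596-75669537, minus strand) fell by 0.84 ± 0.17 (adjusted p = 0.0429).

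Lower-lying lists held genes of respiration and sterol synthesis, with no member past the threshold. In the oxidative phosphorylation list 10 of 16 tested members had separate groups, all lower, and the median was -0.54. All lower groups were found in 5.26% of all genes and in 11.6% of the bin of shortest genes, where this list's median length falls. In cholesterol synthesis 4 of 16 did (Msmo1, Fdft1, Fdps and Mvd), with a median of -0.45. Proliferation genes had a median of -0.23, with Cdk1 at -0.49 ± 0.19 (adjusted p = 0.299). Red blood cell markers, which mark blood in the sample, had a median of -1.41 with overlapping groups (list levels of 8.24, 9.85 and 6.58 in vehicle and 7.74, 5.95 and 6.60 in BXCL701 tumours).

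Differences moved with the exon length of the gene. The median difference was -0.20 in the shortest of 5 equal bins of exon length and 0.15 in the longest. Genes with all BXCL701 tumours lower made up 11.6% of the shortest bin and 0.996% of the longest, and genes with all of them higher made up 4.98% and 9.03%. The genes of the oxidative phosphorylation list had a median exon length of 1438 bases, those of the Rpl22 and snoRNA host list 1989 bases, and those of the interferon gamma list 4726 bases, against 4039 bases over all genes tested. The neutrophil list, at 1908 bases, was short and higher. A length index of each library, the slope of its deviations on log2 exon length, was 0.01, -0.16 and -0.08 in vehicle and -0.01, 0.17 and 0.02 in BXCL701 tumours. With that index as a covariate, 372 genes passed (271 higher, 101 lower), among them all 12. With BXCL701 replicate 2 and vehicle replicate 2 left out, the libraries at the 2 ends of the index, none passed (669 at an unadjusted p under 0.05, limma).

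**Figure D3:**
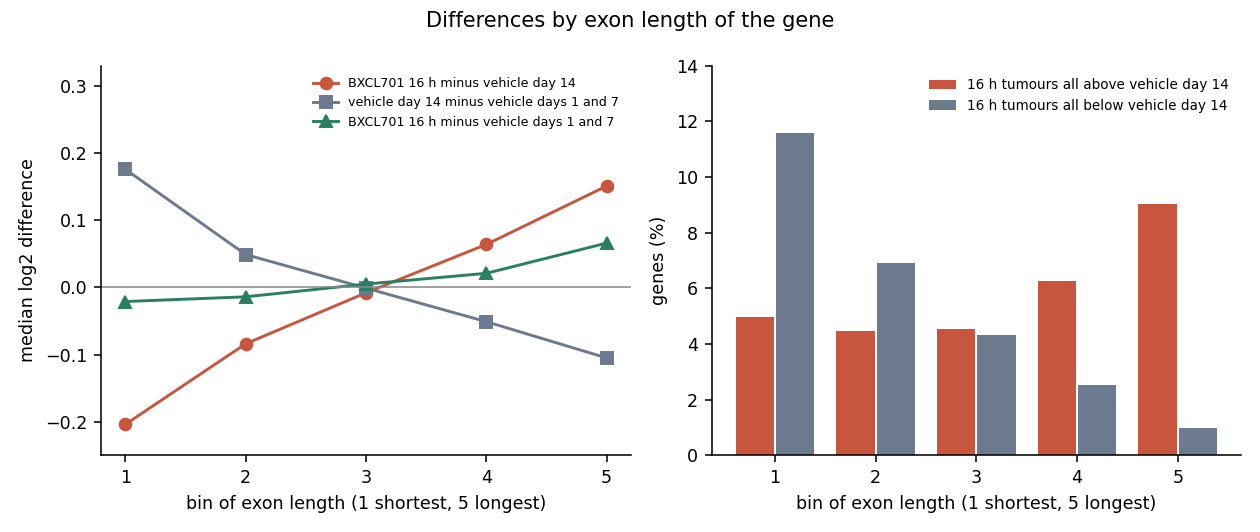
Left, the median log2 difference of the genes in each of 5 equal bins of exon length, for BXCL701 16 h tumours against vehicle of day 14 and of days 1 and 7, and for vehicle of day 14 against vehicle of days 1 and 7. Right, the percentage of genes whose 3 BXCL701 tumours all lie above or all below the vehicle tumours of day 14, which reaches 11.6% (below) in the shortest bin.

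The vehicle tumours of day 14 were also set beside the vehicle tumours of days 1 and 7 (6 tumours, 0 h). The same 3 day 14 tumours enter this and the main comparison, and genes that differ from them in the one are favoured to stand out in the other, so the values that follow are a description and carry no test. In vehicle at day 14 the 9 risen genes stood 0.53 to 1.83 lower on the log2 scale than at days 1 and 7 and the 3 fallen genes 0.49 to 0.74 higher. The interferon gamma list had a median of -1.08, with 20 of 20 members lower, where 49.7% of all genes were. Over all genes 3 rose (0.0181%) and 1 fell (0.00602%) in that comparison, none of them among the 12. Nlrc5, for example, had group means of 9.96 at day 1, 10.22 at day 7 and 9.03 at day 14 in vehicle, and 10.85 in the BXCL701 tumours.

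Against the vehicle tumours of days 1 and 7 the same BXCL701 tumours gave smaller differences for each of the 12 genes. Not every set had a smaller difference: the immediate early median was 0.68 against vehicle of day 14 and 0.83 here. The risen and fallen genes were chosen on these BXCL701 tumours, which favours the same direction and a smaller difference here. The directions that follow are therefore a description and not a separate test. All 9 risen genes stayed above and all 3 fallen genes below, but by 0.34 to 1.35 and by -0.33 to -1.59, and none passed (lowest adjusted p = 0.18, Fgf15). Nlrc5 had a difference of 0.77 ± 0.29, Gbp4 one of 1.35 ± 0.51 and Ciita one of 0.46 ± 0.47 there. The median of the interferon gamma list was 0.83, with all 20 members above 0, where 52.5% of all genes were, and that of class II genes was 0.29. T cell markers, with a median of 1.07 against vehicle of day 14, had only 6 of 13 members above 0 here. The median of NK cell markers went from 0.50 to -0.31, that of oxidative phosphorylation from -0.54 to -0.11 and that of the Rpl22 and snoRNA host list from -0.60 to -0.06 (5 of 13 above 0). The cholesterol synthesis median was -0.45 against both sets of vehicle tumours. The neutrophil median went from 1.29 to 0.83, and Csf3r, the neutrophil gene that had passed, from 1.26 to 0.56 ± 0.22 (adjusted p = 1). Mmp8 and Lcn2, which had not passed, kept larger differences, though the vehicle values of Mmp8 were low. Mmp8 stood 2.06 ± 0.46 (adjusted p = 0.265) and Lcn2 2.43 ± 0.58 (adjusted p = 0.359) above these vehicle tumours. Their vehicle means at day 14 were close to those of days 1 and 7 (Mmp8 at 3.50 against 3.81 and 4.0).

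Only the genes Nr4a1 and Sik1 passed against vehicle of days 1 and 7 (0.012% of genes tested, both higher; no gene fell, limma, with 675 genes at an unadjusted p under 0.05). Nr4a1 rose by 2.30 ± 0.40 and Sik1, a salt-inducible kinase, by 1.27 ± 0.22, each with an adjusted p of 0.0179. The number passing depended on single libraries: it was 0 to 2 when each was left out, and 0 without BXCL701 replicate 3, without vehicle day 1 replicate 1 or 2, or without vehicle day 7 replicate 2 or 3. One of the pair (1 gene) was kept without BXCL701 replicate 2 or vehicle day 1 replicate 3. Without BXCL701 replicate 1 neither was kept, and the 1 gene that passed was another one, lower in the BXCL701 tumours.

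**Figure D4:**
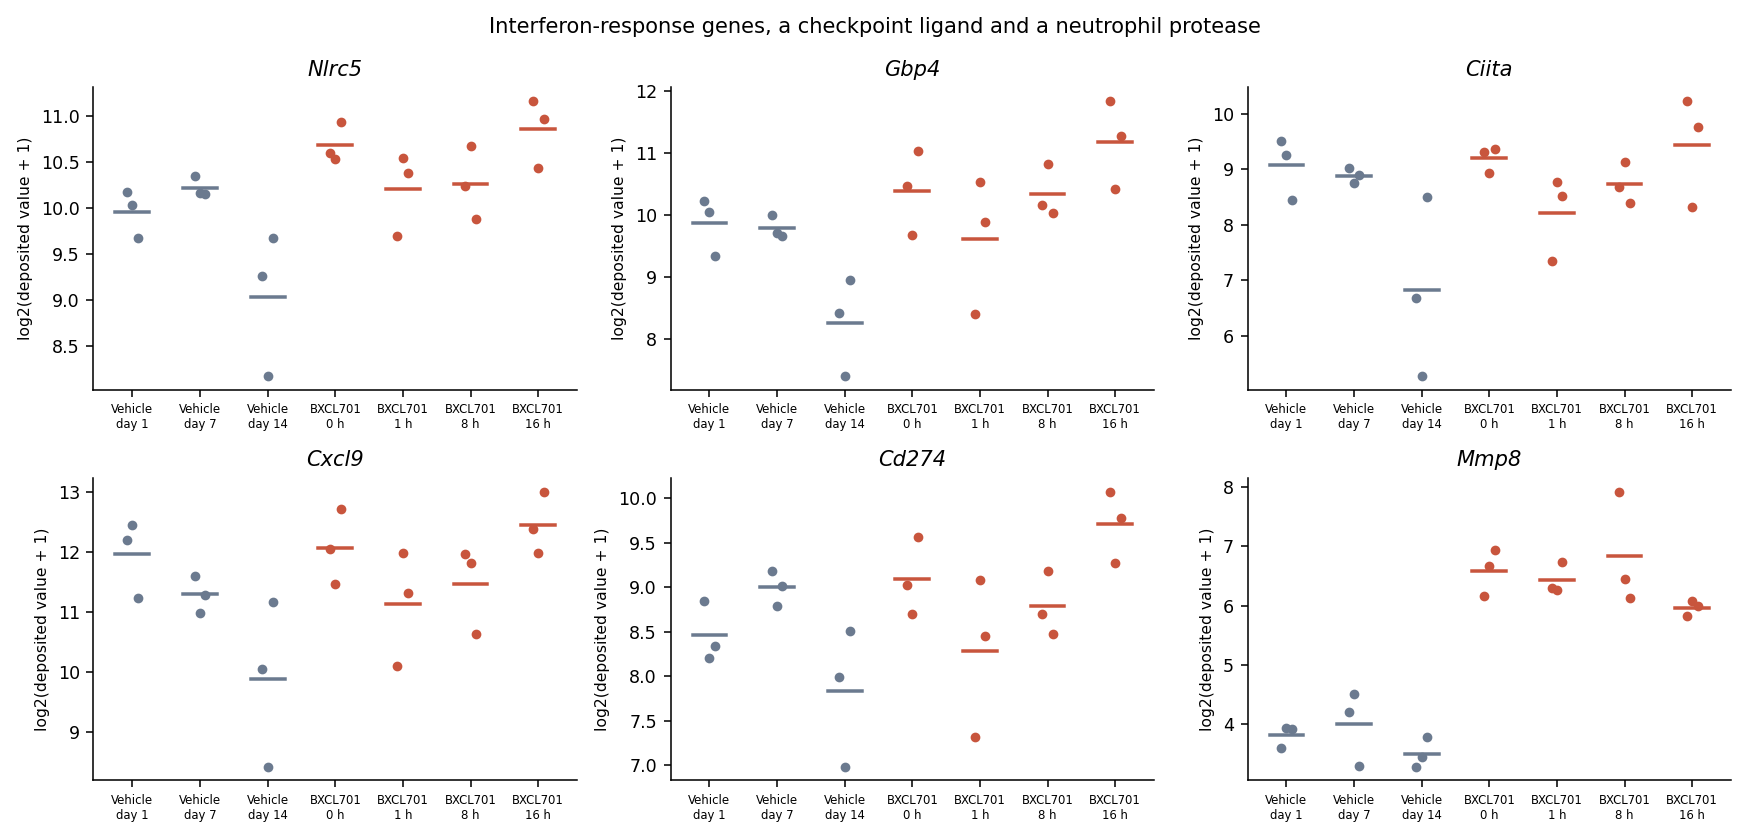
Levels as log2(deposited value + 1) in vehicle tumours of days 1, 7 and 14 and in BXCL701 tumours of day 14 at 0, 1, 8 and 16 h, 3 tumours a group, with the bar at the group mean. The vehicle tumours of day 14 sit lowest of the 7 groups for Nlrc5, Gbp4, Ciita, Cxcl9 and Cd274, and Mmp8 is at 3.50 to 4.0 in vehicle and 5.97 to 6.83 in BXCL701 groups.

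Within day 14 of treatment, no gene passed between 16 h and the mean of 0, 1 and 8 h (0% of genes tested, limma, with 404 genes at an unadjusted p under 0.05), nor between 16 h and 0 h (0%, with 210 genes at an unadjusted p under 0.05). Both counts were below a share of 0.05 of the 16613 genes tested, which no difference would give. The differences of the 9 risen genes from the other hours were -0.11 to 1.07, and the interferon gamma list had a median of 0.80 there, all 20 members above 0, where 54.1% of all genes were. Set beside the vehicle comparison at 0 h, in which 116 genes rose (0.698%) and 14 fell (0.0843%) and which uses the same vehicle tumours, the 9 risen genes had differences of 0.77 to 2.31 at 0 h and 0.87 to 2.94 at 16 h. Of the 9 risen genes 8 also passed at 0 h, and of the 3 fallen genes 2 did. In the neutrophil list 11 of 15 tested members rose at 0 h (0.698% of all genes) and 1 at 16 h (0.0542%). All 15 stood lower at 16 h than at 0 h, with a median of -0.64 against 0.003 over all genes. Mmp8 had 3.09 at 0 h (adjusted p = 0.00839) and 2.46 at 16 h. No gene passed (0%) for a 16 h difference from vehicle that departed between day 7 and day 14 (limma, 2060 genes at an unadjusted p under 0.05, lowest adjusted p = 0.0921). That count of 2060 was above a share of 0.05 of the genes tested, so the lack of calls does not show that the days were alike. The median departure was 0.90 for the interferon gamma list and -0.93 for oxidative phosphorylation, against 0.065 over all genes. The same day 14 vehicle tumours enter these values.

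Immediate early genes stood higher at 16 h than in vehicle in most members. In the list 8 of 13 members had BXCL701 tumours all above vehicle of day 14 (5.84% of all genes), with a median of 0.68 and none passed. Nr4a1 stood at 10.45, 11.38 and 9.62 in vehicle and at 12.09, 11.55 and 11.71 in BXCL701 tumours (1.30 ± 0.46, adjusted p = 0.23). Its group means at day 14 were 10.02, 9.50 and 9.90 at 0, 1 and 8 h, so 16 h stood 1.98 ± 0.37 above them (adjusted p = 0.153, the lowest among genes compared with the other hours). Fos was 1.32 ± 0.31 (adjusted p = 0.418) and Egr1 1.08 ± 0.25 (adjusted p = 0.39) above the other hours. Against the vehicle tumours of day 14, Fos had 9.58, 9.03 and 9.04 in vehicle and 10.28, 9.98 and 10.37 in BXCL701 tumours (adjusted p = 0.286).

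The promoter of Nr4a1 is shown because that gene had the lowest adjusted p against the other hours. Of the 9 immediate early genes in the RefSeq table, 7 contain the cAMP-response half-site TGACG on either strand in any window, where 20.8% of single windows do. The window of Nr4a1 holds 4, which 0.231% of all windows do or exceed. It is given below for the 250 bases before the start (chr15:101266596-101266845, plus strand), with the sites that begin 233, 213, 69 and 40 bases before the start in capitals, read on the opposite strand.
Nr4a1: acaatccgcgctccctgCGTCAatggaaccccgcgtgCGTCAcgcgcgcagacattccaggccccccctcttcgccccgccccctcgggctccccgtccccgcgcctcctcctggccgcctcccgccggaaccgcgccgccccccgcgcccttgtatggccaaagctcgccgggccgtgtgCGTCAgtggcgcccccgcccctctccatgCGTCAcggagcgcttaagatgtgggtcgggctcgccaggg
Binding was not measured.

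Clock genes gave no call in the vehicle comparison. Ciart, a repressor in the clock, stood at 6.66, 6.61 and 6.45 in vehicle and at 5.48, 5.0 and 5.04 in BXCL701 tumours, with separate groups (-1.39 ± 0.36, adjusted p = 0.081). Its other day 14 means were 5.99, 5.65 and 6.80 at 0, 1 and 8 h. Dbp, a clock output gene, had group means of 9.48, 9.03, 10.75 and 8.33 at 0, 1, 8 and 16 h, and Arntl (BMAL1), which acts in opposite phase, had 8.54, 8.64, 7.48 and 9.04. Against the vehicle tumours of day 14, Arntl differed by 0.03 ± 0.23 and Dbp by -0.67 ± 0.47. Tsc22d3 (GILZ), a glucocorticoid target, was 0.92 ± 0.21 lower at 16 h than at the other hours (adjusted p = 0.39). The glucocorticoid list of 12 did not share that direction, with 6 members above 0 and 6 below and a median of -0.13.

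The promoter of Ciart is shown because it holds 3 E-boxes (CACGTG), as 0.0883% of all windows do or exceed. Of the 10 clock repressor and output genes in the table, 4 hold at least 1 in any window, where 7.15% of single windows do. The window is the 150 bases before the start (chr3:95882229-95882378, minus strand), with the E-boxes that begin 116, 58 and 44 bases before the start in capitals.
Ciart: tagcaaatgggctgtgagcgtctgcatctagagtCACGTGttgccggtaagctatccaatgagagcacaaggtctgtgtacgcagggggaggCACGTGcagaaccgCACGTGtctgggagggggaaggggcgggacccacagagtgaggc
Heat shock genes were lower at 16 h than at the other hours in all 10 tested members, by a median of 0.44 on the log2 scale. Over all genes tested 54.1% were above 0 in that comparison. None of the 10 passed, and Hsph1 was 1.06 ± 0.26 lower (adjusted p = 0.462).

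**Figure D5:**
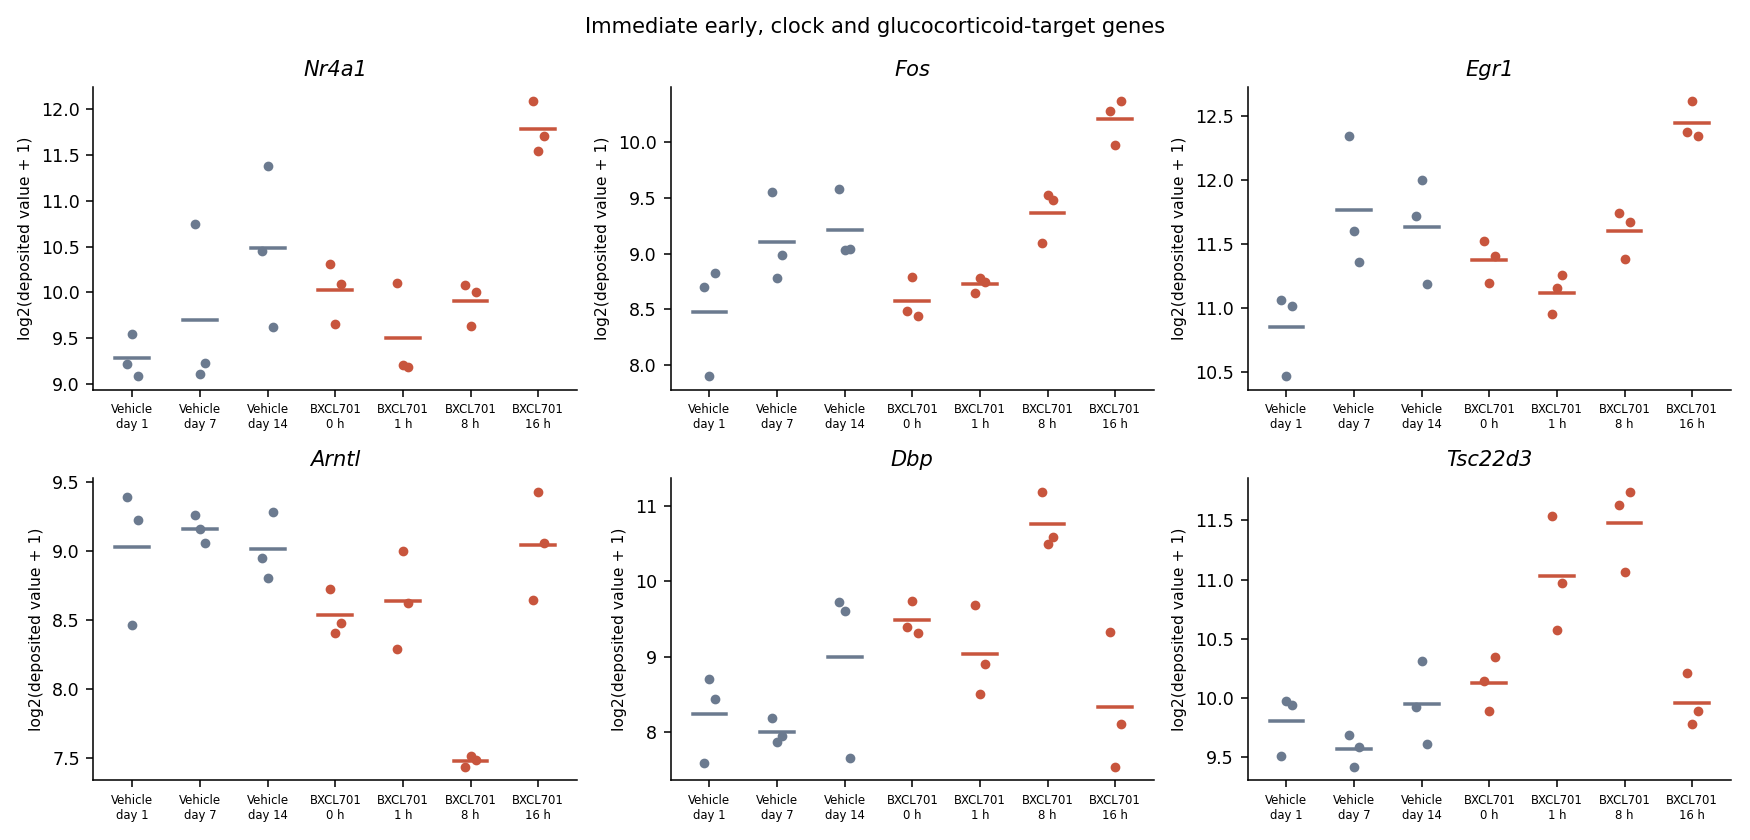
Levels as log2(deposited value + 1) of immediate early, clock and glucocorticoid-target genes in the same 7 groups, 3 tumours a group, with the bar at the group mean. Nr4a1 is highest at 16 h (11.78), Arntl is lowest at 8 h (7.48) and Dbp is highest at 8 h (10.75).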

How the data were processed

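Per the submitters' processing notes, reads were handled with Trimmomatic 0.36, Bowtie 0.12.9 and the GRCm38 build. How reads were quantified, on which annotation and with which scaling is not given in the sources used here. Values in the deposited table of genes are signal, not whole numbers, so count models were not used, although the table is named for counts, and the read depth is unknown. The deposited log2 FPKM table was an alternative only. A value of 10 or more in 3 or more libraries was required (16613 of 47729 genes). On log2(value + 1), which understates changes of low genes, limma 3.58.1 in R 4.3.3 fitted 14 group means to all 42 libraries (28 residual degrees of freedom, trend and robust), and Benjamini-Hochberg adjustment ran over the 16613 genes in each comparison with a threshold of 0.05. With no difference, a share of 0.05 of the 16613 genes would have an unadjusted p under 0.05. The counts of 210, 404, 659, 669, 675 and 792 given for such genes were all below that share. With 3 tumours against 3, an exact permutation test cannot go below 0.1 and was not used. Each library came from its own animal. The members, gene lists and tests were chosen with earlier results of these data known. Named genes were those past the threshold (at most 14 by p-value in either direction), up to 4 per list and 31 fixed genes; Gbp10, Gbp11, Ubd and the other near-threshold genes were chosen after their values were seen. Gene positions and lengths are GENCODE M21 (47310 identifiers found), promoter windows RefSeq. Alternatives are in the closing section. The fit was tested on simulated data.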

Additional observations from a re-analysis of the deposited data

How the results depend on the processing

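The directions of the 12 genes held under each of 17 alternative settings. Leaving out libraries could not reverse them, because the groups of all 12 did not overlap. Settings that altered only the filter, the estimate of the spread or the test left each difference unchanged. The count of 12 did not hold. It was 23 with median-of-ratios factors, 23 without a filter, 73 in the log2 FPKM table, 372 with the length index as a covariate, 0 with the libraries of the comparison alone (792 at an unadjusted p under 0.05, limma), 0 with a 2-fold minimum and 0 with both ends of the length index left out, an alternative chosen after seeing the data. It was 8 to 17 under the remaining 4 settings, of which the one without the 4 libraries of extreme length index was also chosen after seeing the data. Leaving out each library gave 0 to 990. Against the other hours of day 14 the count of 0 became 11 without a filter and 3 with the libraries of the comparison alone. Against 0 h it became 15 without a filter, and 0 to 1 when each library was left out. Against vehicle of days 1 and 7 the count of 2 became 16 without a filter and 0 with the libraries of the comparison alone, and 0 to 2 when each library was left out. For the difference between days it was 1 without a filter and 0 to 622 when each library was left out, the highest without vehicle day 14 replicate 3. The cause of these changes was not tested. No paired analysis was possible because the labels give animal identifiers and no replicate numbers shared between groups. Depth is unknown, so no limit on low genes could be set, and the hour was unmatched.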
